A study of Mus musculus with 33 samples.

Results

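The comparison described here set 3 tumors of PTHrP WT mice aged 8 weeks against 2 mammary glands of tumor-free PTHrP WT mice of the same age, 5 of the 33 sequenced libraries, and covered all genes with enough reads. The libraries are named by their labels. The study asked how the transcriptome of mammary epithelium changes as tumors driven by the PyMT oncogene progress, in mice with and without PTHrP, and it placed the 8-week WT tumors at the adenoma stage. The labels themselves give the tissue (Breast cancer or Mammary Gland), the collection week, the cell type (mammary epithelium) and the genotype (Pthrpwt/wt).

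All 5 mice were Pthrp wt/wt on an FVB background and carried MMTV-Cre and the ROSA mTmG reporter, in which Cre turns membrane tdTomato into membrane GFP. The tumor mice carried MMTV-PyMT as well, and the gland mice did not. The MMTV promoter drives both PyMT and Cre in mammary epithelium, so the oncogene and the reporter switch are read out in the same lineage but need not be in the same cells. Tissue was digested, kept in culture with serum and sorted for GFP+ cells before RNA extraction, so the libraries report cultured and sorted cells of 1 mouse each. The tumors are called tumors 1 to 3 and the glands glands 1 and 2, after the replicate numbers of the labels.

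The mammary duct has an outer layer of basal, or myoepithelial, cells, which contract around the duct and lay down its basement membrane, and an inner layer of luminal cells. Luminal cells are broadly of a hormone-sensing kind, with estrogen and progesterone receptors, and of a progenitor kind that gives rise to the milk-making alveoli under the transcription factor Elf5. PyMT, the polyoma virus middle T antigen, binds Src, Shc and PI3 kinase at the membrane and so turns on growth signalling.

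Reads on genes numbered 108497913, 48641222 and 42396176 in tumors 1 to 3 and 45176725 and 46453735 in glands 1 and 2, within the range of the 33 libraries (28419983 to 130981596). At these depths 3 reads correspond to between 0.0262 and 0.0665 CPM (read counts per library size, scaled with TMM factors), and values near that are at the floor. PyMT reads numbered 3428, 1301 and 2936 in the tumors and 0 in both glands, which matches the labels. EGFP was read at 490, 971 and 436 CPM in the tumors and at 1095 and 488 CPM in the glands. Reads of EGFP outnumbered those of tdTomato by 5.62, 5.36 and 4.85 to 1 in the tumors and by 10.5 and 10.4 to 1 in the glands, so tdTomato RNA was present in all 5 libraries. The glands resembled each other less than the tumors did: the median gene differed by 0.203 on the log2 scale between the glands and by 0.107 to 0.155 between pairs of tumors, and 96 of 10862 genes differed over 4-fold between the glands against 13 to 19 between tumors. With 2 glands, a result can rest on 1 of them.

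Of 36527 genes tested, 3358 (9.19%) were differentially expressed genes (DEGs), with an adjusted p under 0.1 in edgeR's quasi-likelihood test and a fold change over 1.5. Tumors were higher for 1223 genes (3.35%) and lower for 2135 (5.84%). Among the 13405 genes of at least 1 CPM on average, 2340 were DEGs (17.5%), with 991 higher (7.39%) and 1349 lower (10.1%), and these shares are the background against which the gene groups below are read. The lower DEGs moved further, with a median log2 fold change of -2.50 against 1.41 for the higher ones, and were less abundant, at a median of 2.60 CPM against 11.1 CPM. A change over 16-fold was fitted for 119 higher and 384 lower DEGs. All tumors lay beyond both glands for 12175 genes (33.3%), and for 3211 of the 3358 DEGs. Leaving out gland 1 took the higher DEGs to 741, and leaving out gland 2 took the lower DEGs to 1360 and all DEGs to 2211. Of 19970 protein-coding genes 5.06% were higher and 9.14% lower, and of 7044 long noncoding genes 1.89% were higher and 2.14% lower.

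**Figure D1:**
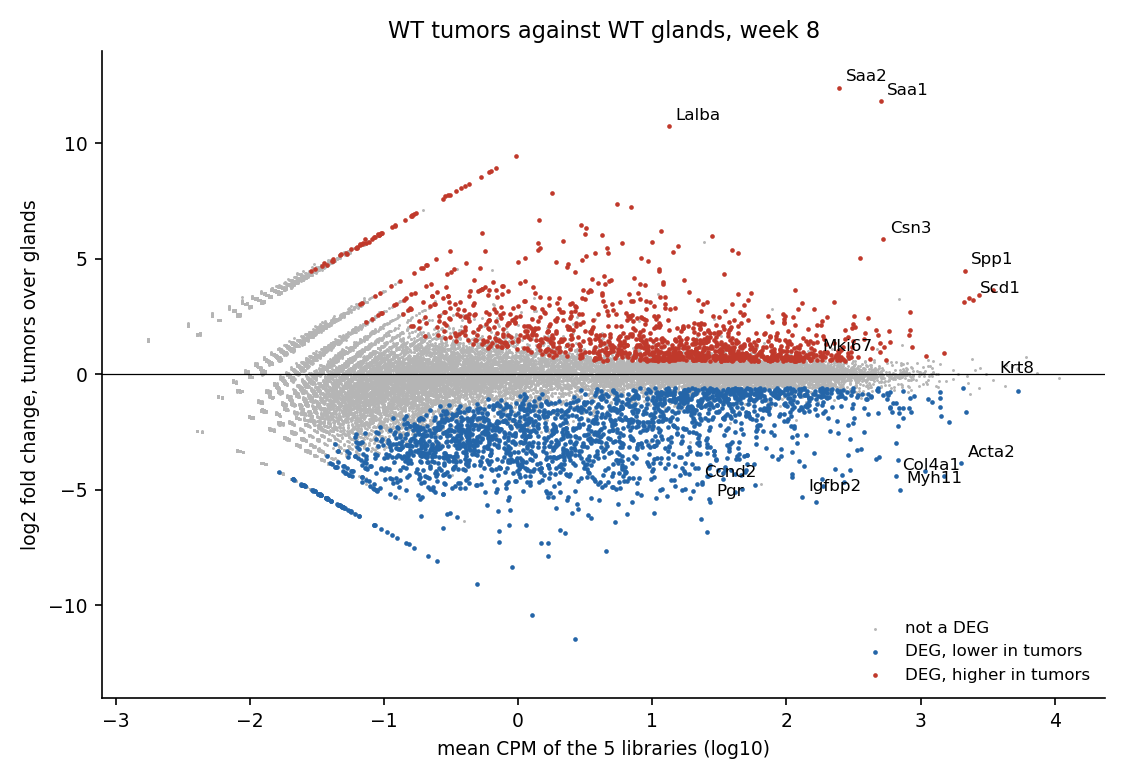
Each point is 1 of the 36527 genes, with the mean CPM of the 5 libraries (log10) across and the log2 fold change of tumors over glands upward. Red points are the 1223 higher DEGs and blue points the 2135 lower DEGs, and the lower DEGs spread further from 0 while Saa1, Saa2 and Lalba stand at the top, above 10 on the log2 scale.

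Among known genes of at least 5 CPM, the 12 with the highest fold changes held the acute-phase genes Saa1, Saa2 and Lrg1, the milk genes Lalba, Csn3 and Csn1s1, the chemokine gene Ccl20, the polymeric immunoglobulin receptor gene Pigr, and Cdh19, Scube1, Slc6a2 and Timd2. Timd2, the gene of a ferritin receptor, was at 15.1, 19.6 and 14.3 CPM in the tumors and at 0.155 and 0.445 CPM in the glands, 53.6-fold higher in the tumors (log2 fold change 5.74 ± 0.60 SE, adjusted p = 2.06e-06). Scube1, the gene of a secreted EGF-domain protein, was at 33.5, 59.0 and 44.9 CPM in the tumors and at 0.975 and 0.485 CPM in the glands (5.97 ± 0.76, adjusted p = 1.74e-05). At the other end, the 12 lowest held Scn7a, Ifi27l2a, Sprr1a, Popdc2, Pgr, Actg2, R3hdml, Dchs1, Uts2b, Col14a1, Igfbp2 and Il33. Scn7a, a sodium channel gene, was at 0.584, 0.685 and 0.957 CPM in the tumors and at 45.0 and 67.4 CPM in the glands, 76.5-fold lower in the tumors (-6.26 ± 1.48, adjusted p = 0.00692). For Ifi27l2a, an interferon-induced gene at 0.139, 0 and 0.617 CPM in the tumors, 0.753 CPM in gland 1 and 30.7 CPM in gland 2, the call was lost without gland 2. The other 23 of these 24 genes were called in each refit that left out 1 library.

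**Figure D2:**
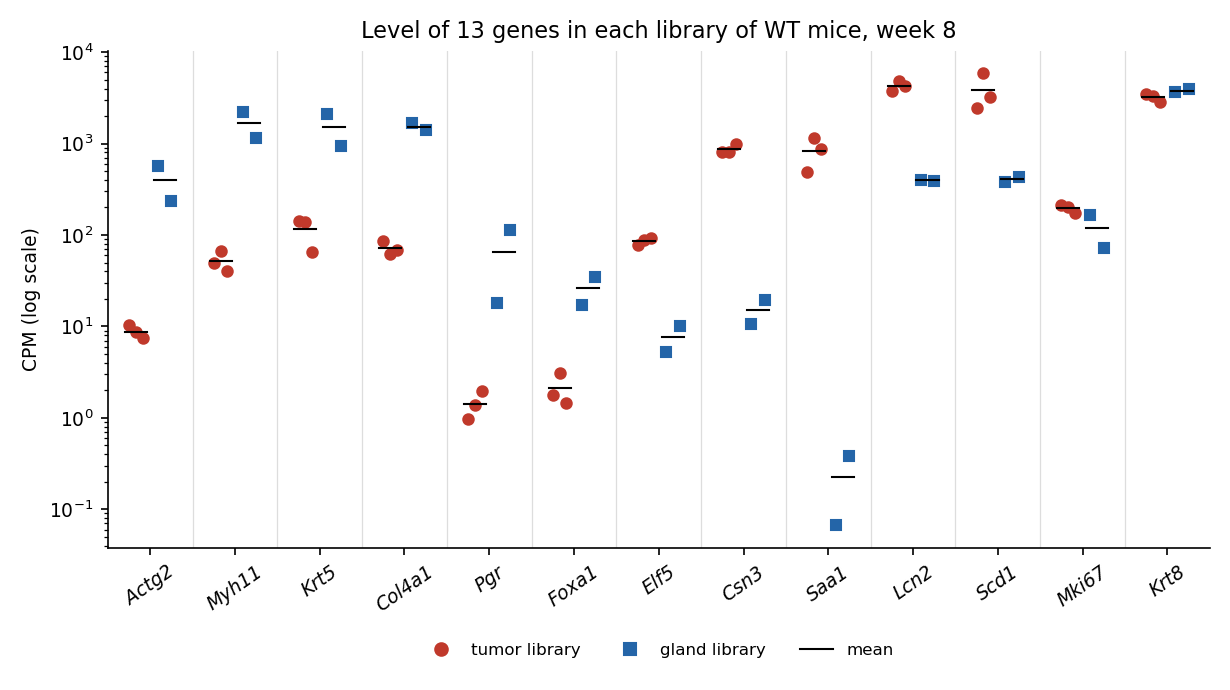
CPM on a log scale of 13 genes in each of the 3 tumor libraries (red circles) and 2 gland libraries (blue squares), with a line at each group's mean. For the basal genes Actg2, Myh11 and Krt5, for Col4a1 and for the hormone-sensing genes Pgr and Foxa1 the tumors lie below both glands, for Elf5, Csn3, Saa1, Lcn2 and Scd1 they lie above, for Krt8 the groups are close, and for Mki67 gland 1 is close to the tumors and gland 2 below them.

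Of 719 genes tested in 39 lists by role, each counted once, 249 were DEGs. The shares of DEGs were highest, in the lower direction, for the basal markers and for the basement membrane and its integrins, and in the higher direction for the milk genes and the antimicrobial and acute-phase genes. The lists of G2 and M genes and of DNA replication genes held none in the fit of all libraries.

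**Figure D3:**
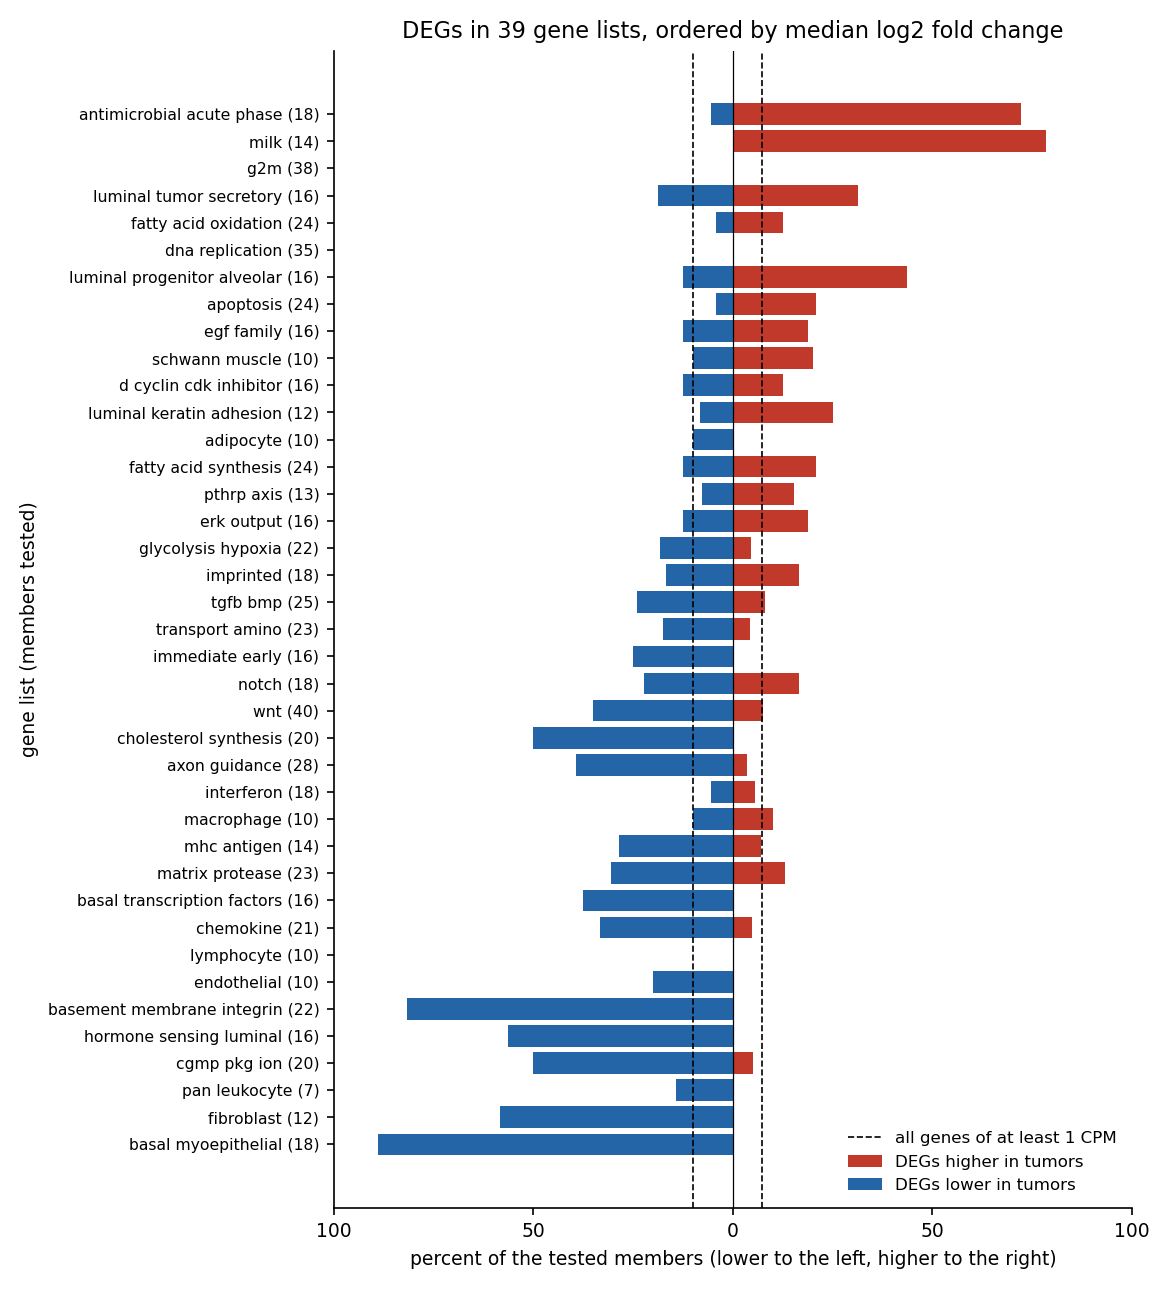
Percent of the tested members of 39 gene lists that were lower DEGs (blue, to the left) or higher DEGs (red, to the right), in the order of the lists' median log2 fold change, with the number of members tested in parentheses. Dashed lines mark the shares among all genes of at least 1 CPM, 10.1% lower and 7.39% higher; the basal markers reach furthest left and the milk genes furthest right.

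Markers of basal myoepithelial cells were lower in the tumors. Of 18 markers, 16 fell, none rose, and the median log2 fold change was -3.60, against 0.04 over all genes of at least 1 CPM. In these bulk libraries, fewer basal cells and less RNA per basal cell cannot be told apart. Actg2, the gene of smooth muscle gamma-actin, was at 10.32, 8.62 and 7.38 CPM in the tumors and at 569 and 233 CPM in the glands, a 45.6-fold difference (-5.51 ± 0.93, adjusted p = 0.0003). Myh11, the smooth muscle myosin heavy chain gene, was at 49.8, 67.2 and 40.3 CPM in the tumors and at 2191 and 1147 CPM in the glands (-4.99 ± 0.87, adjusted p = 0.000424). The groups were far from overlapping for both contractile genes, and gland 1 was the higher gland. Acta2, the smooth muscle alpha-actin gene, fell 14.4-fold, from 6033 and 3059 CPM in the glands to 312, 376 and 261 CPM in the tumors (adjusted p = 0.000757). Igfbp2, which encodes a binding protein of insulin-like growth factors, fell 39.5-fold (adjusted p = 0.000516).

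The basal keratins fell less evenly. Krt5 was at 142, 137 and 65.2 CPM in the tumors against 2112 and 930 CPM in the glands (log2 fold change -3.73). Krt14 kept a larger part of its level, at 800, 683 and 921 CPM against 2371 and 1275 CPM (-1.19 ± 0.35, adjusted p = 0.038), and this call was lost on leaving out gland 1, tumor 1 or tumor 2. Trp63, the gene of the basal transcription factor p63, was at 55.9, 56.2 and 50.8 CPM in the tumors and at 157 and 125 CPM in the glands and did not pass the test (-1.38 ± 0.52, adjusted p = 0.118), though it was called lower under 6 of 12 refits. Cald1, the caldesmon gene, did not pass either (-0.70 ± 0.30, adjusted p = 0.182). Summed over the 18 markers, the tumors held 3629, 3720 and 3346 CPM and the glands 25947 and 12935 CPM. The number of lower markers was 13 without gland 1 and 17 without gland 2.

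Of 16 transcription factors of the basal state 6 were lower and none higher, with a median of -0.97. Tbx2, a T-box repressor, was at 0.497, 0.181 and 0.915 CPM in the tumors and at 6.07 and 6.95 CPM in the glands (-3.62 ± 0.75, adjusted p = 0.00213). Snai2, the gene of Slug, which holds cells in the basal state, was at 5.46, 5.92 and 4.34 CPM against 37.3 and 23.4 CPM (-2.53 ± 0.45, adjusted p = 0.000479). Egr2 fell 7.48-fold. Twist2 was called (-3.12 ± 1.05, adjusted p = 0.0727), but its signal lay in gland 2 (1.48 CPM against 0.111 CPM in gland 1) and the call was lost on leaving out that library or any 1 tumor. Srf, the gene of serum response factor, on which smooth muscle genes depend, was at 91.7, 94.9 and 81.7 CPM against 158 and 93.1 CPM and did not pass (-0.49 ± 0.19, adjusted p = 0.136).

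Genes of the basement membrane and its integrin receptors fell in 18 of 22 cases, with none higher in the edgeR fit of all libraries and a median of -1.66. With DESeq2, with no filter or with the compared groups only, 1 was higher. The paired genes Col4a1 and Col4a2 encode the main collagen chains of the basement membrane. Col4a1 was at 85.9, 62.2 and 68.7 CPM in the tumors and at 1658 and 1401 CPM in the glands (-4.40 ± 0.50, adjusted p = 5.4e-06). Col4a2 was at 45.7, 33.8 and 37.1 CPM and at 696 and 671 CPM (-4.14 ± 0.41, adjusted p = 1.62e-06). Their folds were 21.2 and 17.6, with little spread in either group. Col17a1, the hemidesmosomal collagen gene, fell 12.8-fold and Itga9, an integrin subunit gene, 14.4-fold (adjusted p = 0.000153 and 0.000266). Itga3, the subunit of the laminin receptor that luminal cells use as well, was at 652, 594 and 594 CPM against 1063 and 750 CPM and did not pass (-0.56 ± 0.25, adjusted p = 0.205). Fbln2 did not pass either (adjusted p = 0.682). Basal markers fell in the same libraries, and their part in this result was not tested.

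Genes of cGMP and PKG signalling and of ion channels of contractile cells included 10 lower members and 1 higher of 20, with a median of -1.74. Trpc6, a calcium-permeable channel gene, was at 0.349, 0.866 and 0.425 CPM in the tumors and at 8.04 and 31.7 CPM in the glands (-5.21 ± 0.86, adjusted p = 0.000243). Kcnmb1, the beta subunit of the large-conductance potassium channel of smooth muscle, was at 0.575, 0.524 and 0.447 CPM against 25.3 and 11.8 CPM (-5.15 ± 0.87, adjusted p = 0.000333). Ryr3 fell 18.1-fold and Pde3a 17.3-fold. In contrast, Pde5a, the cGMP-hydrolysing phosphodiesterase gene, was at 25.4, 24.7 and 26.0 CPM in the tumors and at 28.0 and 25.5 CPM in the glands, a log2 fold change of -0.08 ± 0.16.

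Of 12 keratin and adhesion genes of luminal cells, 3 rose and 1 fell, with a median of 0.09. Krt8, the main luminal keratin gene, was at 3506, 3294 and 2876 CPM in the tumors and at 3638 and 3915 CPM in the glands (-0.23 ± 0.29, adjusted p = 0.731). Krt18, its partner, was at 3350, 2891 and 2673 CPM against 2258 and 2597 CPM (0.29 ± 0.27, adjusted p = 0.619). Both were abundant in all 5 libraries, as the cell type label asks. Krt19 fell 5.72-fold, from 372 and 1132 CPM in the glands to 121, 155 and 119 CPM in the tumors (adjusted p = 0.000219). Muc1, an apical mucin gene, rose 9.05-fold, and the claudin genes Cldn3 and Cldn7 rose 1.70-fold and 1.69-fold (adjusted p = 0.0145, 0.00986 and 0.0446). All 3 calls were lost without gland 1, which had the lower level of each, and that of Cldn7 also without tumor 1.

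Genes of hormone-sensing luminal cells were lower in the tumors in 9 of 16 cases, with none higher and a median of -1.70. Pgr, the progesterone receptor gene, was at 0.968, 1.37 and 1.96 CPM in the tumors and at 17.9 and 113 CPM in the glands (-5.53 ± 0.86, adjusted p = 0.000133). Tbx3, a T-box gene needed for mammary development, was at 2.42, 4.23 and 1.91 CPM against 36.2 and 85.6 CPM (-4.42 ± 0.64, adjusted p = 7.44e-05). Foxa1, the pioneer factor of the estrogen receptor, was at 1.77, 3.12 and 1.45 CPM against 17.03 and 34.9 CPM (-3.62 ± 0.51, adjusted p = 4.93e-05). For these 3 genes gland 2 was the higher gland, yet gland 1 alone lay above all tumors. Esr1, the estrogen receptor gene, was at 4.90, 5.36 and 5.78 CPM in the tumors and at 10.1 and 33 CPM in the glands (-2.01 ± 0.54, adjusted p = 0.0179). This call was lost without gland 2, as was that of Greb1, an estrogen receptor target. Prom1 and Ly6a, of the same list, did not pass (adjusted p = 0.175 and 0.286). Over the list the count of lower DEGs was 10 without gland 1 and 5 without gland 2, and the median was -2.32 and -0.27.

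Genes of luminal progenitors and of the alveolar lineage moved both ways, with 7 of 16 higher and 2 lower, and a median of 0.27. Elf5, the ETS factor that directs alveolar fate, was at 77.5, 88.9 and 92.6 CPM in the tumors and at 5.25 and 10.0 CPM in the glands, 11.3-fold higher in the tumors (3.50 ± 0.49, adjusted p = 4.73e-05). Trf, the transferrin gene, was at 833, 1448 and 1506 CPM against 147 and 247 CPM (2.68 ± 0.59, adjusted p = 0.00416). Cd14, a coreceptor of lipopolysaccharide that luminal progenitors carry as macrophages do, was at 265, 271 and 276 CPM against 52.6 and 56.4 CPM (2.31 ± 0.32, adjusted p = 4.49e-05). None of these groups overlapped. Kit, a progenitor receptor gene, rose 2.83-fold near the threshold (adjusted p = 0.0872), a call lost under every omission of 1 library. Aldh1a3, a retinaldehyde dehydrogenase gene, went the other way, at 56.3, 30.3 and 44.7 CPM in the tumors, 72.6 CPM in gland 1 and 341 CPM in gland 2 (-2.24 ± 0.54, adjusted p = 0.0088), and was no longer called without gland 2. The list had no lower DEG without gland 2 and 1 on leaving out any 1 tumor, and 4 higher DEGs without tumor 2. Itga2 and Itgb3, which mark progenitors, did not pass (adjusted p = 0.336 and 0.61).

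Milk genes rose in 11 of 14 cases with none lower, and their median log2 fold change was 3.24, with 2.89 without gland 1 and 5.45 without gland 2. Csn3, the kappa-casein gene (chr5:87925579-87932665, + strand, GRCm38), was at 807, 806 and 999 CPM in the tumors and at 10.7 and 19.2 CPM in the glands, 58.2-fold higher in the tumors (5.86 ± 0.60, adjusted p = 1.7e-06). Csn1s1, the alpha-S1-casein gene, was at 16.1, 30.03 and 11.0 CPM against 0.443 and 0.0808 CPM (6.20 ± 1.22, adjusted p = 0.00143). The tumors lay above the glands for both, and Csn3 was uniform among the tumors. Lalba, the alpha-lactalbumin gene, had 1987, 280 and 2061 reads in the tumors and 1 and 0 reads in the glands, a ratio of 1938 with a 95% counting interval of 348 to 76546. Wap, the whey acidic protein gene, had 210, 99 and 47 reads in the tumors and none in either gland, at least 25.3-fold higher against a floor of 3 reads per library. The call of Wap stood just under the threshold (adjusted p = 0.0989) and was lost under every omission of 1 library. Csn1s2a had 124 reads in the tumors and 2 in the glands, a ratio of 27.8 (95% counting interval 7.52 to 232). Csn2, the beta-casein gene, had 285, 214 and 6 reads in the tumors and 2 in each gland (adjusted p = 0.087), so tumor 3 was near the floor, and the call was lost on leaving out either gland, tumor 1 or tumor 2. Csn1s2b and Olah, with at most 8 reads in any library, did not pass. Without either gland in turn 7 of the 14 milk genes were called.

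The casein genes Csn1s1, Csn2, Csn1s2a, Csn1s2b and Csn3 lie in 1 cluster on chromosome 5. Milk gene promoters are known to bind STAT5, whose core motif is TTCNNNGAA, the same on both strands. In RefSeq promoters (GRCm38.p6, 250 bases before to 50 bases after the start site), available for 10 of the 14 milk genes, 4 held this motif (40%), against 2582 of all 27025 promoters (9.55%). The promoters of the 3 caseins with the motif are shown 5′ to 3′ because they are milk genes that rose together, with the motif in capitals. It lies 100 bases before the RefSeq start site in Csn1s1 (chr5:87665958-87666257, + strand), 93 bases before it in Csn2 (chr5:87699376-87699675, - strand) and 20 bases after it in Csn1s2a (chr5:87774200-87774499, + strand). Gencode places other starts, at 87699630 for Csn2, so that the motif lies inside the gene, and at 87774567 for Csn1s2a, so that it lies before the gene. The fourth promoter with the motif was that of Glycam1, which had 5 reads in the tumors and 1 in the glands. The 4 did not include Csn3, Lalba or Wap, whether for want of the motif or of a RefSeq promoter. A motif match is not a binding site, and STAT5 binding was not measured.

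Csn1s1: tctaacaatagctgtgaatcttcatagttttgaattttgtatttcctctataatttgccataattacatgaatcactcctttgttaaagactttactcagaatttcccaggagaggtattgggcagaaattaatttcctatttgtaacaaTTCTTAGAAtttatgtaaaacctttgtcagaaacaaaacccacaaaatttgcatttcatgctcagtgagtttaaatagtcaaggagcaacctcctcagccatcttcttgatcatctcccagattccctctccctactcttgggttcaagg
Csn2: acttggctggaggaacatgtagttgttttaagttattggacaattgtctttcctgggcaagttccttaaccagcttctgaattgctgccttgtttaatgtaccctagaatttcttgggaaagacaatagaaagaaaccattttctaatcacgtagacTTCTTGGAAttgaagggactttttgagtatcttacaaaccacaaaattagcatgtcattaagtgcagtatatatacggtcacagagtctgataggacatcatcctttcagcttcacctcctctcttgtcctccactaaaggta
Csn1s2a: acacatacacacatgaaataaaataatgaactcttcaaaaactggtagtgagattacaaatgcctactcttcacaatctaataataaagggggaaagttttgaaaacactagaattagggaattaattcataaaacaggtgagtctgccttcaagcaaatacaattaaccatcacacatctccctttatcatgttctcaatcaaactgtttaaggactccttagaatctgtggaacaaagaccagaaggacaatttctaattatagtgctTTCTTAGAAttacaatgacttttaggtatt

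Genes of antimicrobial and acute-phase proteins rose in 13 of 18 cases, fell in 1, and had a median of 3.54, the highest median of the 39 lists, although that of the milk genes was higher without gland 2 (5.45 against 4.45) and with edgeR's own filter (4.54), the compared groups only (4.77) or DESeq2 on the 5 libraries (4.82). Saa1, a serum amyloid A gene, was at 491, 1143 and 882 CPM in the tumors and at 0.0665 and 0.384 CPM in the glands, where it had 3 and 19 reads (11.81 ± 1.37, adjusted p = 6.41e-06). Saa2, its neighbour, was at 233, 537 and 469 CPM against 0.111 and 0.0404 CPM (12.40 ± 1.5, adjusted p = 1.2e-05). The difference of both thus ran from near the floor to at least 233 CPM in each tumor. Their promoters, printed 5′ to 3′ from RefSeq (GRCm38.p6), show how alike these stretches are: 287 of 301 aligned columns were identical (95.3%). Saa1 (chr7:46742931-46743230) is on the - strand and Saa2 (chr7:46751583-46751882) on the + strand, so the genes point away from each other. How alike their transcripts are was not measured, and reads shared by near-identical copies can be split between them in the counting, so the separate folds of Saa1 and Saa2 are uncertain.

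Saa1: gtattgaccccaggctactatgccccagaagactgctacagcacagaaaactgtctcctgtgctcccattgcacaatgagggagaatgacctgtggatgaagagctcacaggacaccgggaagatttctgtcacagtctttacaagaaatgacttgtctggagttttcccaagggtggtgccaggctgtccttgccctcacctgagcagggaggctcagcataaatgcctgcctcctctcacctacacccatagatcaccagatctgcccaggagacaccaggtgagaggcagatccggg
Saa2: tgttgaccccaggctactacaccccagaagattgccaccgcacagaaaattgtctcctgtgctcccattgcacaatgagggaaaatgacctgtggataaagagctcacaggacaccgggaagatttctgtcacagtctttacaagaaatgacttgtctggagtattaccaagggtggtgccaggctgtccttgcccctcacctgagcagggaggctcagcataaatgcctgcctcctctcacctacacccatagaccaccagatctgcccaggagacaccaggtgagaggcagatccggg

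Saa3, the third active member of this locus, differed from both: it was at 70.2, 102 and 99.0 CPM in the tumors, at 0.0665 CPM in gland 1 and at 120 CPM in gland 2, and did not pass (0.58 ± 1.24, adjusted p = 0.869). Lcn2, the gene of the siderophore-binding lipocalin 2, was at 3749, 4891 and 4274 CPM in the tumors and at 404 and 388 CPM in the glands (3.44 ± 0.37, adjusted p = 2.86e-06). S100a8 was at 57.3, 97.3 and 58.0 CPM against 1.95 and 1.80 CPM. Its usual partner in neutrophils, S100a9, was at most at 0.18 CPM in all 5 libraries. Orm1, an acute-phase glycoprotein gene, rose 64.7-fold, and Pigr, which carries IgA across the epithelium, was at 3.98, 18.1 and 12.4 CPM against 0 and 0.141 CPM (7.25 ± 1.43, adjusted p = 0.0014). Wfdc2 did not pass, at 164, 175 and 93.9 CPM against 122 and 199 CPM. The count of higher members was 12 without gland 1 and 13 without gland 2, and the lower call was lost on leaving out gland 2, tumor 1 or tumor 3.

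Of the 18 secretory genes linked to luminal tumors, 16 were tested, since Tff1 and Tff3 had too few reads, and 5 rose and 3 fell. Spp1, the osteopontin gene, was at 2183, 4807 and 3431 CPM in the tumors and at 47.1 and 263 CPM in the glands, 22.4-fold higher in the tumors (4.48 ± 0.82, adjusted p = 0.000709). Folr1, a folate receptor gene, rose 11.5-fold and Muc15, a membrane mucin gene, 14.7-fold (adjusted p = 9.66e-05 and 5.87e-05). Ptn, the pleiotrophin gene, fell 31.3-fold, from 30.4 and 191 CPM in the glands to 3.99, 4.85 and 1.70 CPM in the tumors (adjusted p = 0.00188). Clu, the clusterin gene, was at 2875, 2675 and 2528 CPM against 1983 and 2736 CPM, with overlapping groups.

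Cell cycle genes were not separated between the groups by the test. Of 38 genes of the G2 and M phases none was a DEG in edgeR, 0 had an unadjusted p under 0.05 and DESeq2 called 0 in the fit of all libraries and 5 higher in a fit of these 5 alone, although all 38 fold changes were positive, with a median of 0.63. Mki67, a marker of cycling cells, was at 215, 203 and 174 CPM in the tumors, 167 CPM in gland 1 and 72.2 CPM in gland 2 (0.72 ± 0.59, adjusted p = 0.562). Top2a was at 401, 337 and 366 CPM, 299 CPM and 122 CPM in the same order (0.81 ± 0.60, adjusted p = 0.524). Gland 1 thus stood close to the tumors and gland 2 apart. The median of the list was 1.54 without gland 1 and 0.04 without gland 2. Of 35 DNA replication genes none was a DEG in edgeR either, at 0 with an unadjusted p under 0.05, with 1 higher in an edgeR fit of the compared groups only and with 0 and 3 in the same DESeq2 fits (median 0.27), and Pcna was at 135, 123 and 115 CPM against 125 and 119 CPM (0.03 ± 0.25).

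Among D-type cyclins, their kinases and inhibitors, 2 of 16 rose and 2 fell, of which Cdkn2b was lost on leaving out either gland, tumor 2 or tumor 3. Ccnd2, the cyclin D2 gene, was at 1.94, 2.28 and 1.57 CPM in the tumors and at 56.8 and 46.0 CPM in the glands, 26.6-fold lower in the tumors (-4.73 ± 0.55, adjusted p = 6.29e-06). Ccnd1, the cyclin D1 gene, was at 213, 168 and 185 CPM against 268 and 273 CPM and did not pass (-0.52 ± 0.47, adjusted p = 0.604). Cdk4, their kinase, was level at 255, 249 and 223 CPM against 228 and 239 CPM. Cdkn1c, the gene of the inhibitor p57, rose 3.59-fold (adjusted p = 0.00305), and Rb1, the retinoblastoma gene, rose 3.44-fold (adjusted p = 0.00922), a call lost without gland 1. Of 24 apoptosis genes, 5 rose (3 without gland 1) and 1 fell, with a median of 0.23. The survival gene Bcl2 was at 60.0, 62.4 and 49.8 CPM in the tumors against 26.0 and 17.8 CPM (1.39 ± 0.19, adjusted p = 3.52e-05), and Fas, the gene of a death receptor, at 14.7, 19.6 and 12.6 CPM against 4.94 and 5.78 CPM (1.55 ± 0.30, adjusted p = 0.00134). Bok, a proapoptotic family member, fell 4.87-fold.

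Of 24 genes of fatty acid synthesis and storage, 5 rose (3 without gland 2) and 3 fell, with a median of 0.05. Scd1, the desaturase that makes oleate from stearate, was at 2447, 5861 and 3191 CPM in the tumors and at 384 and 430 CPM in the glands, 9.41-fold higher in the tumors (3.23 ± 0.40, adjusted p = 1.2e-05). Acsl4, which activates arachidonate, was at 611, 732 and 619 CPM against 227 and 285 CPM (1.35 ± 0.23, adjusted p = 0.000283). Thrsp, the Spot 14 gene of lipogenic tissues, had 488, 201 and 292 reads in the tumors and 2 and 3 reads in the glands (6.45 ± 1.07, adjusted p = 0.000249). Fasn, the fatty acid synthase gene, did not move with them, at 732, 794 and 725 CPM against 988 and 786 CPM (-0.24 ± 0.17, adjusted p = 0.505). Of the desaturase genes next to Scd1 on chromosome 19, Scd3 (1.36, adjusted p = 0.0889) and Scd4 (-1.55, adjusted p = 0.0717) were called in opposite directions near the threshold, which was not checked with libraries left out, and Scd2, at 726, 915 and 822 CPM against 1243 and 1118 CPM, did not pass (adjusted p = 0.24). Dgat2, for triglyceride synthesis, fell 3.60-fold (adjusted p = 0.0011). Gm50337, a long noncoding gene beside Scd1 (chr19:44419610-44437886, + strand, GRCm38), was at 0.514, 1.03 and 1.17 CPM against 0.0222 and 0.101 CPM (3.78 ± 0.60, adjusted p = 0.000159).

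Of 20 genes of cholesterol synthesis 10 were lower and none higher, with a median of -0.73, while DESeq2 called 14 lower and 1 higher, and 1 was also higher in edgeR with its own filter, with no filter or with the compared groups only. Mvk, the mevalonate kinase gene, was at 18.2, 18.3 and 15.3 CPM in the tumors and at 47.0 and 37.1 CPM in the glands (-1.29 ± 0.23, adjusted p = 0.000501). Sqle, the squalene epoxidase gene, was at 151, 142 and 119 CPM against 256 and 270 CPM (-0.94 ± 0.17, adjusted p = 0.000501). Mvd, the gene of mevalonate diphosphate decarboxylase, fell 1.87-fold (adjusted p = 0.00552). All tumors lay below both glands for 15 of the 20 genes and above them for 1, beside the 33.3% of all genes that did not overlap in either direction. Hmgcs1, for the first step of the pathway, was at 243, 228 and 192 CPM against 415 and 297 CPM without passing (-0.69 ± 0.26, adjusted p = 0.115), though it was called under 6 of 12 refits. Only 3 of the 20 were called without gland 1, and 10 without gland 2. Of 24 genes of fatty acid oxidation 3 rose and 1 fell, with a median of 0.33, and without gland 1 these counts were 1 and 0. The lower one was also lost without tumor 1 or tumor 2, and without tumor 2 the higher count was 1. Cpt1a, which commits fatty acids to the mitochondrion, was at 104, 100 and 82.3 CPM against 42.9 and 53.4 CPM (0.99 ± 0.30, adjusted p = 0.0412), a call lost on leaving out either gland, tumor 1 or tumor 2. Eci2 rose 1.70-fold (adjusted p = 0.00207), and Hadha was level at 187, 186 and 164 CPM against 166 and 147 CPM.

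Glycolysis and hypoxia genes held 1 higher and 4 lower DEGs of 22 (median -0.14). Slc2a1, the glucose transporter GLUT1 gene, was at 126, 122 and 122 CPM in the tumors and at 209 and 240 CPM in the glands (-0.86 ± 0.16, adjusted p = 0.00104). Slc16a3, a lactate exporter gene, fell 5.32-fold (adjusted p = 0.0182). Pkm and Aldoa were level, with log2 fold changes of -0.06 ± 0.14 and -0.09 ± 0.16. Car9, a hypoxia-induced carbonic anhydrase gene, rose 3.95-fold, at 9.83, 11.3 and 23.1 CPM against 3.28 and 4.16 CPM (adjusted p = 0.00991), but not without gland 1. Of 23 genes of amino acid transport and stress, 1 rose and 4 fell. Slc6a14, an importer of neutral and cationic amino acids, was at 5.48, 5.02 and 5.19 CPM in the tumors against 0.222 and 0.0808 CPM (5.11 ± 0.71, adjusted p = 4.7e-05), and Slc43a1 fell 10.5-fold. Atf4 was at 291, 313 and 298 CPM against 372 and 372 CPM without passing. The lower members of this list numbered 1 without tumor 3, 2 on leaving out gland 2, tumor 1 or tumor 2, and 6 with DESeq2.

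In growth factor signalling, targets of ERK included 3 higher and 2 lower DEGs of 16, and the EGF family 3 higher and 2 lower of 16. Spry1, a feedback inhibitor of the pathway, was at 17.1, 20.8 and 18.2 CPM in the tumors and at 9.75 and 10.0 CPM in the glands (0.92 ± 0.24, adjusted p = 0.0137), and Etv1, a PEA3 factor gene, rose 3.98-fold (adjusted p = 0.0819). Both calls were lost without gland 1, and that of Etv1 also without tumor 2 or tumor 3. Spred2, another inhibitor, fell 2.04-fold (adjusted p = 0.00467) and was not called without gland 2. Areg, the amphiregulin gene, was at 8.40, 6.02 and 7.06 CPM in the tumors, 8.22 CPM in gland 1 and 95.1 CPM in gland 2, so its call (adjusted p = 0.0179) rested on gland 2 and was lost without it. Nrg1, the neuregulin gene of basal cells, fell 5.58-fold, from 55.3 and 23.7 CPM to 8.79, 4.67 and 7.74 CPM (adjusted p = 0.00133). Erbb4 rose 7.27-fold, at 2.15, 1.37 and 2.49 CPM against 0.244 and 0.303 CPM (adjusted p = 0.00981), and lost its call without gland 1. Egfr and Erbb3, the more abundant receptors, did not pass (adjusted p = 0.611 and 0.35). Without gland 1 the higher DEGs numbered 0 among the ERK targets and 1 in the EGF family, and without gland 2 the lower ones numbered 0 and 1. Each omission of 1 tumor left 1 lower ERK target.

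Wnt pathway genes were lower in 14 of 40 cases and higher in 3, with a median of -0.56. Lgr5, a receptor for R-spondins, was at 0.541, 1.25 and 0.744 CPM in the tumors and at 17.1 and 20.5 CPM in the glands (-4.49 ± 1.00, adjusted p = 0.00421). The ligand gene Wnt6 was at 0.209, 0.101 and 0.191 CPM against 1.86 and 1.98 CPM (-3.47 ± 0.77, adjusted p = 0.00407). The inhibitor genes Dkk2 and Dkk3 fell 17.7-fold and 13.5-fold. These 4 genes, named for the largest changes among the DEGs of the list, thus went the same way. Wnt7b, a luminal ligand gene, was at 210, 200 and 199 CPM against 148 and 225 CPM, and the coreceptor gene Lrp6 did not pass (0.38 ± 0.18, adjusted p = 0.247). Of 18 Notch genes, 3 rose and 4 fell. The ligand genes Jag1 and Jag2 fell 3.23-fold and 3.03-fold (adjusted p = 0.00364 and 0.0108), the latter not without gland 1. Hey1, a Notch target, was at 25.2, 28.3 and 51.7 CPM in the tumors against 3.61 and 6.83 CPM (2.74 ± 0.80, adjusted p = 0.0314), a call lost on leaving out either gland or tumor 3, and Hes1, another target, did not pass (adjusted p = 0.918). None of the 18 Notch genes was a higher DEG without gland 1, and 1 was without tumor 2 or without tumor 3. The higher Wnt genes numbered 1 without gland 1.

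In the TGF-beta and BMP families 2 of 25 rose and 6 fell (median -0.23). Bmp7 was at 3.11, 2.96 and 2.28 CPM in the tumors and at 82.2 and 37.5 CPM in the glands (-4.42 ± 0.61, adjusted p = 4.32e-05). Tgfb3 rose 3.75-fold, at 372, 404 and 387 CPM against 116 and 90.9 CPM (1.91 ± 0.39, adjusted p = 0.00193). Bmpr1b, a BMP receptor gene, fell 4.59-fold. Grem1, a BMP antagonist gene, was at most at 0.191 CPM in the tumors, at 0.133 CPM in gland 1 and at 2.04 CPM in gland 2, and its lower call (adjusted p = 0.0765) turned to a log2 fold change of 0.07 without gland 2 and was lost on leaving out any 1 tumor. The lower members numbered 2 on leaving out gland 2 or tumor 3, and the median was -0.05 without gland 2.

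Guidance genes, which pattern axons and ducts alike, were lower in 11 of 28 cases (7 without tumor 3) and higher in 1. Slit2, the ligand gene, was at 7.26, 5.56 and 6.70 CPM in the tumors and at 77.4 and 82.0 CPM in the glands (-3.61 ± 0.50, adjusted p = 4.73e-05). Robo1, its receptor gene, was at 6.15, 5.60 and 7.21 CPM against 51.8 and 73.4 CPM (-3.31 ± 0.66, adjusted p = 0.00165). Ligand and receptor both fell, as did Slit3, 29.0-fold, and Plxna2, 6.62-fold. The 1 higher member was Ntn1, the netrin 1 gene, at 492, 430 and 483 CPM against 106 and 124 CPM, 4.07-fold higher with a small error (2.03 ± 0.20, adjusted p = 1.62e-06). Ephb4 and Epha2 were level, with log2 fold changes of 0.10 ± 0.15 and 0.30 ± 0.25.

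Fibroblast markers fell in 7 of 12 cases (median -3.39), but not evenly over the glands. Postn, the periostin gene, made up most of the list's signal, with 118, 243 and 139 CPM in the tumors and 4304 and 2650 CPM in the glands (-4.38 ± 0.86, adjusted p = 0.00134). Fbln1 fell 15.4-fold, from 20.02 and 23.0 CPM to 1.54, 1.45 and 1.17 CPM. Both were high in each gland. The defining genes Col3a1 and Dcn were high in gland 2 and not in gland 1. Col3a1 was at 7.498, 5.68 and 4.04 CPM in the tumors, 0.133 CPM in gland 1 and 305 CPM in gland 2 and did not pass (-4.73 ± 1.77, adjusted p = 0.117). Dcn was at 0.924, 1.21 and 1.60 CPM, then 1.75 CPM and 77.8 CPM, and was not called on leaving out gland 2, tumor 1 or tumor 2. Col1a2, at 16.4 CPM in gland 1 and 172 CPM in gland 2, lost its call on leaving out gland 2 or any 1 tumor. Without gland 1 the list had 10 lower members and without gland 2 it had 3, with a median of -0.39.

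Markers of leukocytes, lymphocytes and endothelial cells were low, while in the tumors the sums of the macrophage, adipocyte and Schwann and muscle lists lay mainly in Cd14, Pnpla2 and Sox10. Leukocyte markers summed to 1.98 to 3.998 CPM in the tumors and to 5.60 and 18.96 CPM in the glands, with 1 of 7 lower (5 with DESeq2, 3 without gland 1 and 0 on leaving out gland 2 or any 1 tumor), and Ptprc, the CD45 gene, was at 0.375, 0.322 and 0.872 CPM against 0.842 and 5.01 CPM (adjusted p = 0.105, called lower under 7 of 12 refits). Lymphocyte markers summed to at most 0.51 CPM in the tumors and to 0.0443 and 1.25 CPM in the glands, with no DEG among 10 in edgeR or DESeq2 and 1 at an unadjusted p under 0.05. Without gland 1 there was 1 lower DEG, and the median of -1.29 became 2.67 without gland 2. Endothelial markers summed to 1.49 to 2.79 CPM in the tumors and to 2.77 and 9.44 CPM in the glands, with 2 of 10 lower. Both of these calls, of Vwf and Cldn5, were lost on leaving out gland 2 or any 1 tumor, and Cldn5 had 1 read in the tumors and 29 in gland 2. Macrophage markers summed to 276 to 293 CPM in the tumors and to 62.8 and 105 CPM in the glands. Of 10 of them, Cd14 rose and Adgre1, the F4/80 gene, fell (at 0.354 CPM in gland 1 and 3.56 CPM in gland 2, and not without gland 2 or tumor 2), and Csf1r was level at 3.83, 4.25 and 3.998 CPM against 2.41 and 7.34 CPM. Adipocyte markers summed to 94.1 to 105 CPM in the tumors and to 75.4 and 77.9 CPM in the glands, with the defining gene Adipoq at most at 0.0202 CPM, and had 1 lower DEG of 10, Lep, at or under 1.19 CPM in every library and not called without gland 2, tumor 2 or tumor 3. The list of Schwann and muscle cells summed to 307 to 331 CPM in the tumors and to 210.3 and 127 CPM in the glands. In it 2 of 10 rose and 1 fell (1 and 0 without gland 2), and Sox10, which mammary epithelium also expresses, was at 197, 215 and 215 CPM against 101 and 63.9 CPM (1.34 ± 0.43, adjusted p = 0.0524), a call lost on leaving out gland 2, tumor 2 or tumor 3.

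**Figure D4:**
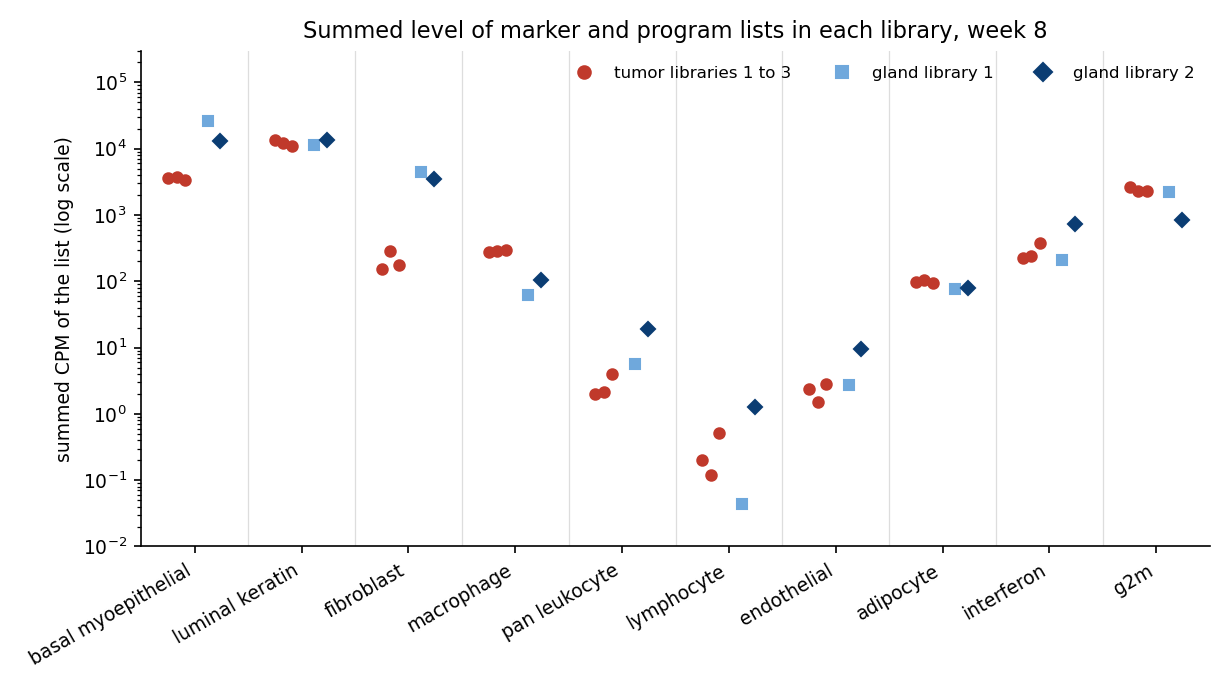
Summed CPM (log scale) of marker and program lists in each library, with tumors 1 to 3 as red circles, gland 1 as light blue squares and gland 2 as dark blue diamonds. Basal markers are at 25947 CPM in gland 1 and 12935 CPM in gland 2 against 3346 to 3720 CPM in the tumors, while leukocyte, lymphocyte, endothelial and interferon sums are highest in gland 2.

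Interferon and antigen processing genes summed highest in gland 2. Interferon genes, with 1 higher and 1 lower DEG of 18, summed to 227, 243 and 385 CPM in the tumors, 212 CPM in gland 1 and 726 CPM in gland 2. The lower DEGs numbered 0 on leaving out gland 2, tumor 1 or tumor 2 and 2 without gland 1, and the median of -0.80 became 0.76 without gland 2. Genes of MHC and antigen processing, with 1 higher and 4 lower of 14, summed to 1413, 1800 and 1898 CPM, 1718 CPM and 3529 CPM in the same order, and the lower DEGs among the 14 numbered 0 on leaving out gland 2, tumor 1 or tumor 2 and 7 without gland 1. The 1 higher DEG, Ciita, was lost under every omission of 1 library. With all 5 libraries, the lower DEGs among the 14 numbered 7 with DESeq2, 9 with no filter and 1 with the compared groups only. B2m was at 254, 375 and 402 CPM in the tumors, 312 CPM in gland 1 and 833 CPM in gland 2 (adjusted p = 0.281). Of 16 immediate early genes 4 fell, among them Egr2 and Klf4, and the count was 1 without gland 2 and 2 on leaving out tumor 1 or tumor 2. Klf4 was at 29.6, 24.3 and 41.4 CPM in the tumors and at 66.0 and 125 CPM in the glands and lost its call without gland 2.

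Chemokines and cytokines included 7 lower and 1 higher DEG of 21 (median -1.29). Ccl20, which draws CCR6-bearing cells, had 1519, 355 and 319 reads in the tumors and 2 and 3 reads in the glands (7.36 ± 0.74, adjusted p = 1.62e-06). Il33, an alarmin gene, was at 0.384, 1.37 and 0.702 CPM in the tumors and at 14.7 and 47.5 CPM in the glands (-5.28 ± 0.97, adjusted p = 0.000707). Ccl7 was called lower (adjusted p = 0.0104) on 847 reads in gland 2 against 2 in gland 1, and its log2 fold change was 1.29 without gland 2. Without that library 3 members were lower DEGs and the median was -0.15.

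Matrix proteases and their inhibitors and substrates included 7 lower and 3 higher DEGs of 23. Mmp2, the gelatinase A gene, was at 7.30, 11.3 and 7.87 CPM in the tumors and at 119 and 142 CPM in the glands (-3.89 ± 0.80, adjusted p = 0.00211). Sparc fell 11.9-fold, from 1410 and 750 CPM (adjusted p = 0.000674). Mmp7, the epithelial matrilysin gene, had 75, 28 and 10 reads in the tumors and none in either gland, at least 7.504-fold higher against the floor. Mmp3 was at 0.288 CPM in gland 1 and 122 CPM in gland 2, and its log2 fold change of -3.92 became 3.81 without gland 2 (adjusted p = 0.406), and the call was also lost on leaving out any 1 tumor.

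Of 13 genes of the PTHrP axis, 2 were higher and 1 lower. Pthlh, which encodes PTHrP, was at 2.16, 2.66 and 2.38 CPM in the tumors and at 6.60 and 3.29 CPM in the glands and did not pass (-1.04 ± 0.41, adjusted p = 0.141), though it was called lower under 6 of 12 refits with another setting. Gnas, the stimulatory G protein gene, was at 670, 747 and 630 CPM against 723 and 651 CPM (-0.01 ± 0.13). Downstream of it, the adenylyl cyclase gene Adcy7 fell 5.14-fold (adjusted p = 0.000584) and the cAMP phosphodiesterase gene Pde4b rose 2.09-fold (adjusted p = 0.00586), the latter not without gland 1.

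Of 18 imprinted genes 3 rose and 3 fell. Peg3 was at 147, 140 and 135 CPM in the tumors and at 32.8 and 26.3 CPM in the glands (2.25 ± 0.46, adjusted p = 0.00207). Meg3 and Rian, noncoding genes of 1 imprinted locus, fell 9.37-fold and 9.12-fold (adjusted p = 0.000437 and 0.00656), and Ndn, of another locus, fell 14.04-fold. H19 ranged from 67.0 to 142 CPM in the tumors and was at 161 and 214 CPM in the glands without passing (adjusted p = 0.674). Among further noncoding genes of at least 5 CPM, C530043A13Rik rose most, at 24.0, 34.9 and 23.8 CPM against 1.09 and 2.18 CPM (4.07 ± 0.90, adjusted p = 0.00406). Carmn, the host gene of smooth muscle microRNAs, was at 3.82, 2.03 and 2.70 CPM against 37.9 and 19.3 CPM (-3.32 ± 0.50, adjusted p = 9.35e-05), in the direction of the contractile genes. AW112010, an interferon-induced transcript, fell 19.1-fold, from 14.6 and 66.3 CPM to 1.90, 3.06 and 1.40 CPM (adjusted p = 0.000569).

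The same contrast can be read at other ages and in PTHrP KO mice, in libraries that share no mouse with the 5 above: WT tumors against WT glands at weeks 6 and 10, and tumors against glands of PTHrP KO mice (Pthrp flox/flox with MMTV-Cre, which removes part of Pthlh) at week 10, each with 3 tumors and 2 glands. KO week 10 differs from WT week 8 in genotype and age at once. Of reads on genes, rRNA made up 8.04% and 4.35% in its glands and 0.0045%, 2.51% and 2.06% in its tumors. In the 5 libraries above it was at most 0.25%. Mitochondrial genes made up 7.33% and 4.71% in the KO glands and 1.24%, 6.59% and 3.32% in the KO tumors, against at most 1.87%. The part of these shares in the KO results was not tested. Of the 1223 higher DEGs of week 8, 458 were also higher DEGs at week 6 (37.4% of those of week 8 and 53.9% of the 849 of week 6), 628 at week 10 (51.3% and 69.8% of 900) and 641 in KO mice (52.4% and 68.3% of 938). Of the 2135 lower DEGs, 1037 were lower DEGs at week 6 (48.6% and 80.4% of 1290), 1015 at week 10 (47.5% and 75.7% of 1340) and 870 in KO mice (40.7% and 77.1% of 1129). No DEG of week 8 was a DEG in the opposite direction in any of the 3. In these comparisons the genes called higher were 2.32%, 2.46% and 2.57% of those tested at week 6, at week 10 and in KO mice, and those called lower 3.53%, 3.67% and 3.09%. The median effects were smaller elsewhere, with a median log2 fold change of 0.81, 0.94 and 0.96 for the higher DEGs of week 8 and of -1.61, -1.46 and -1.48 for the lower ones. These genes were picked by their effect at week 8, so no difference between ages is read from this.

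A difference between the effects was tested directly as an interaction. None of the 36527 genes was called for week 8 against week 6, week 10 or KO week 10 (0% each) in edgeR, with the lowest adjusted p at 0.973, 1 and 0.798. At an unadjusted p under 0.05 there were 1260, 1463 and 1507 genes. Each is under a share of 0.05 of the 36527 tested, so no excess is read from them. DESeq2 called 1, 0 and 12. Among the genes with the smallest p, the tumor effect of Ntn1 was larger at week 8 than at week 6 by 1.06 ± 0.27 on the log2 scale (unadjusted p = 0.000519, adjusted p = 0.973). Its tumor levels at week 6 were 323, 331 and 310 CPM, and its gland levels 193 and 137 CPM. For Dleu7 the difference from week 6 was 2.23 ± 0.53 (adjusted p = 0.973), and for Col5a3 that from KO week 10 was -3.54 ± 0.78 (adjusted p = 1), neither past the threshold.

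**Figure D5:**
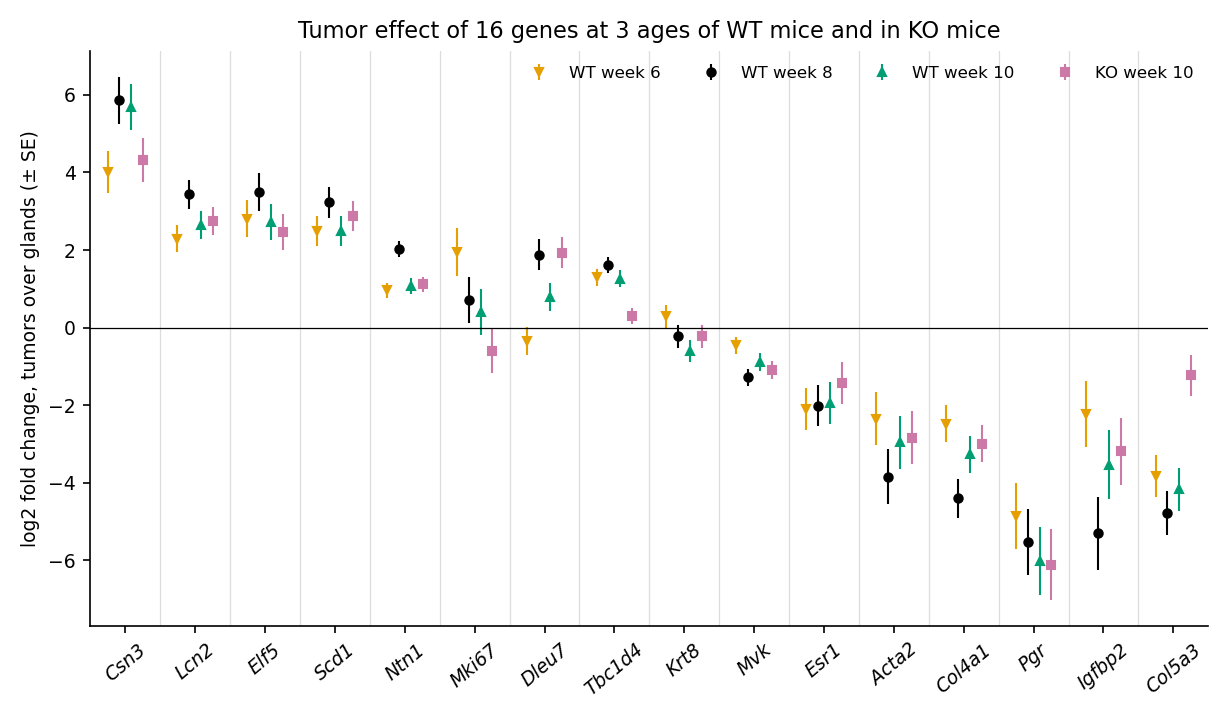
Log2 fold change of tumors over glands with its SE for 16 genes in WT mice at week 6 (orange), week 8 (black) and week 10 (green) and in KO mice at week 10 (pink). Csn3, Lcn2, Elf5, Scd1 and Ntn1 lie above 0 and Acta2, Col4a1, Pgr and Igfbp2 below 0 in all 4, while Mki67 runs from 1.94 at week 6 to -0.61 in KO mice.

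The basal, hormone-sensing, milk and antimicrobial groups had DEGs mostly in the same direction in the other mice. Basal markers were lower DEGs in 11, 10 and 10 of 18 cases at week 6, at week 10 and in KO mice, and basement membrane genes in 13, 13 and 12 of 22, with 1 higher at week 6 and 1 at week 10. Milk genes were higher in 7 of 14 cases in each, and antimicrobial genes in 12, 13 and 14 of 18. Hormone-sensing genes were lower in 6, 8 and 5 of 16 cases, with 1 higher in KO mice. The cell cycle lists did not follow this. At week 6, 29 of the 38 G2 and M genes and 18 of the 35 replication genes were higher DEGs, while at week 8, at week 10 and in KO mice none was in the edgeR fit of all libraries (1 replication gene at week 8 with the compared groups only), and the median of the G2 and M genes was 2.03, 0.63, 0.36 and -0.39. The gland levels of Mki67 went from 62.9 and 46.8 CPM at week 6 and 167 and 72.2 CPM at week 8 to 244 and 27.6 CPM at week 10 and 296 and 247 CPM in KO mice, while its tumor levels lay between 71.2 and 258 CPM throughout. The interaction of Mki67 between weeks 8 and 6 was -1.22 ± 0.82 (adjusted p = 0.973), so a difference between the ages was not shown. Cholesterol genes were lower DEGs in 1 of 20 cases at week 6, 15 at week 10 and 6 in KO mice, with 1 higher at week 6. The interaction of Mvk between weeks 8 and 6 was -0.82 ± 0.33 (adjusted p = 0.973).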

How the data were processed

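RNA of sorted GFP+ cells was depleted of rRNA and sequenced as stranded paired-end libraries, 1 per mouse. The authors aligned reads with HISAT to GRCm38 and Gencode gene models, removed duplicates with Picard (1.128 per the labels) and used HTSeq to count reads on each gene. Values of the deposited table are these raw counts, not normalized. Whether counting used the strand is not given in the sources used here, so reads of overlapping genes on opposite strands may be shared. The table has 55487 genes and 111 further rows (spike-in, reporter and transgene sequences), which entered neither the library sizes nor the tests and served only to check the labels. A second deposited table, of normalized signal, was not used.

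Counts of all 33 libraries were fitted together in edgeR 4.0.16 (R 4.3.3, TMM, quasi-likelihood F-test, two-sided) with 1 coefficient per genotype, tissue and age, on 36527 genes with at least 10 reads in sum. A DEG had a Benjamini-Hochberg adjusted p under 0.1 and a fold change over 1.5. The fit shares its estimate of spread over all conditions, since 3 against 2 mice give little. The ± values are standard errors of the log2 fold change (n = 3 tumors and 2 glands, each a separate mouse). A gene with 0 reads in a library may have up to 3 expected reads. This floor, and the exact conditional binomial 95% intervals of read ratios, cover counting error only, as the reads carry no molecular identifiers. Gene positions are those of Gencode M21 on GRCm38, matched by identifier, and sequences are RefSeq promoters of GRCm38.p6. The fit was tested on simulated counts with known changes.

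Gene lists were written from textbook knowledge, and the part of the series, the lists and the tests were chosen with earlier results of these data known. Lists are described by counts and medians, with no test. Genes were named by rule: the 12 DEGs of each direction with the largest change among known genes of at least 5 CPM without overlap, from each list up to 4 DEGs with the largest change and up to 2 abundant members that were not DEGs, a fixed list, up to 8 genes with the smallest adjusted p per interaction, and 5 noncoding DEGs of each direction. Adipoq, Csn1s2a, Ctse, Glycam1, Gm9625, Klk1b1, Klk1b26, Krt5, Lcn2, S100a8, S100a9, Scd3 and Scd4 were named outside these rules, after their values were seen. So were the mast cell and plasma cell genes. Alternatives were DESeq2 1.42.0 (all libraries, or these 5), DESeq2 size factors, other filters on low counts, the compared groups only, other thresholds, a replicate block and each library left out in turn.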

Additional observations from a re-analysis of the deposited data

How the results depend on the processing

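The count of 3358 DEGs became 3892 with DESeq2, 4129 with DESeq2 on the 5 libraries, 3331 with DESeq2 size factors, 3858 with edgeR's own filter, 3693 with no filter, 3748 with the compared groups only, 2669 at a fold change over 2 and 2556 at an adjusted p under 0.05. With 1 library left out it ran from 2211 to 2557, with 741 to 1020 higher and 1360 to 1748 lower, and the DEGs among list members ran from 190 to 213 (249 with all). The cause of these drops beyond the loss of a sample was not tested.

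Whether samples of the same replicate number come in pairs could not be decided. The deviations correlated at 0.249 for number 1 and 0.0346 for number 2. With 2 glands, the correlation of a tumor with 1 gland is the negative of that with the other. A fit with the replicate number as a block called 2254 DEGs, 954 higher and 1300 lower.

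The interactions, with 0 called, gave 1 gene for week 6 and 12 for KO week 10 with DESeq2, 9, 26 and 15 (weeks 6 and 10, KO week 10) with no filter and 2 for week 10 with the compared groups only. Leaving out 1 library gave 0 to 1 for week 6, 0 for week 10 and 0 to 3 for KO week 10.

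Of 169 named DEGs, 107 were called under each of 12 refits and 62 were lost under at least 1. Without gland 2, 41 were lost beside the 4 whose direction turned. The replicate block lost 35, and leaving out tumor 2, gland 1, tumor 1 or tumor 3 lost 31, 29, 26 and 25. Over the refits that left out 1 library, the log2 fold change ran from -7.23 to 1.29 for Ccl7, from -6.99 to 1.71 for Cldn5, from -4.91 to 3.81 for Mmp3 and from -3.84 to 0.075 for Grem1, positive without gland 2 in each case. Of 88 named genes that were not DEGs, 33 were called under at least 1 refit. List medians moved over 1.5 times in 26 of 468 cases. With 2 glands, the spread between glands rests on 1 pair, and a difference of a gene near 3 reads could not be detected.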

Other observations

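Families defined by the start of the gene symbol, chosen after their values were seen and with at least 10 tested members of at least 1 CPM, showed where else the DEGs lay. Collagen genes (Col) were lower in 19 of 34 cases and higher in 1, with a median log2 fold change of -2.12. Keratin genes (Krt) were lower in 8 of 15 cases and higher in none. Cadherin genes (Cdh) were lower in 6 of 10 cases, and Cdh19 was higher, at 8.99, 7.92 and 12.27 CPM in the tumors against 0.0222 and 0.344 CPM in the glands. Phosphodiesterase genes (Pde) went the other way, with 6 of 15 higher and 2 lower. Solute carriers (Slc) split evenly, with 39 higher and 33 lower of 232. Ribosomal protein genes were nearly level, with none of 46 Rpl genes and 2 of 42 Rps genes called.

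Mast cell and plasma cell genes, which no list held and which were also picked after their values were seen, were highest in gland 2 and near or at 0 in the other 4 libraries. Tpsab1, a mast cell tryptase gene, was at 13.3 CPM in gland 2, 0.0222 CPM in gland 1 and 0 in all tumors. Tpsb2, another tryptase gene, was at 6.33 CPM in gland 2, and Cpa3, the mast cell carboxypeptidase gene, at 4.22 CPM. Ighg1, an immunoglobulin heavy chain gene, was at 8.23 CPM in gland 2, 0 in gland 1 and 0.0638 CPM in tumor 3. These genes are among the lower DEGs of the tumors on gland 2 alone. Ctse, the cathepsin E gene, was at 22.2 CPM in gland 2, 0.177 CPM in gland 1 and at most 0.0806 CPM in the tumors.

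The kallikrein genes Klk1b1 and Klk1b26 had 220 and 242 reads in the tumors and none in either gland, at least 15.95-fold and 17.9-fold higher against the floor. They are near-identical copies of other kallikrein genes, so reads may be split among them. The pseudogene Gm9625 was at 60.8 and 65.0 CPM in the glands and at 0.593, 0.463 and 0.617 CPM in the tumors. Its log2 fold change was -6.80 at week 8, -5.62 at week 10, -0.89 at week 6 and -1.18 in KO mice. The edgeR fit of all libraries called no gene for an interaction, so a difference between these effects was not shown.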
